A study of Mus musculus with 9 samples.

Results

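Growth factors that myeloid cells can supply to a tumor were followed here as 9 genes: Vegfa, Vegfb, Igf1, Pdgfa, Pdgfb, Hbegf, Gas6, Osm and Wnt6. They were chosen by name as angiogenic and trophic factors made by myeloid cells, with Wnt6 added, and matched by Ensembl identifier to 9 of the 53801 genes in a table of raw RNA-seq counts. All 9 passed the low-count filter that left 12538 protein-coding genes for testing. None was under 10 counts in every library, the mark used for a gene near the count floor, but Wnt6 had under 10 counts in 3 libraries.

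The samples were cells sorted for CD11b, a surface marker shared by microglia, monocytes and macrophages, out of brain hemispheres that held an implanted GL261 glioma. The study asked how blocking arginase, alone or with an immune checkpoint antibody, alters these cells. All mice were male C57BL/6J animals aged 10 to 12 weeks that received GL261 glioma cells carrying tdTomato and luciferase in the right striatum. The CTR group (2 libraries) received saline, the OAT-1746 group (2 libraries) received the arginase 1 and 2 inhibitor OAT-1746 by gavage at 50 mg/kg per dose, the anti-PD-1 group (2 libraries) received the antibody intraperitoneally at 2.5 mg/kg between days 8 and 14, and the COMB group (3 libraries) received both agents. Collection is given as day 28 in the methods of the study and as day 21 in a figure legend, and since anti-PD-1 replicate 2 has a treatment label with a different antibody target, this library was grouped by its title. Whether a library came from 1 mouse or from pooled mice is not stated in the labels, and p-values below describe the spread between these libraries.

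Solid tumors depend on signals that draw in vessels and keep cells alive, and macrophages are a known source of them. VEGF ligands act on endothelial receptors, PDGF, IGF and EGF family ligands act on receptor tyrosine kinases of tumor and stromal cells, Gas6 bridges dying cells to the receptors Axl, Mertk and Tyro3, oncostatin M signals through the shared receptor chain gp130, and Wnt proteins act through Frizzled receptors. In glioma, microglia and infiltrating monocyte-derived macrophages form much of the tumor mass and exchange such ligands with the glioma cells.

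The libraries held between 13048075 counts (COMB replicate 1) and 18796479 counts (anti-PD-1 replicate 2), with group medians of 17609977 in CTR, 17082225.5 under OAT-1746, 16576703.5 under anti-PD-1 and 14806017 in COMB. Itgam, the gene of CD11b, lay between 294 and 446 CPM (counts relative to library size, scaled by the trimmed mean of M-values, TMM) in the 9 libraries, and its level per length was at or above that of 94.5% of tested genes. Ptprc, the gene of the leukocyte antigen CD45, lay between 379 and 760 CPM.

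OAT-1746 replicate 2 stood apart from the rest. Its Pearson correlation with the other libraries across tested genes was 0.911 to 0.956, whereas the other 8 libraries correlated with each other at 0.960 to 0.989. The same library had the lowest summed level of 8 monocyte and macrophage markers, at 1749 CPM, against 8673 CPM in OAT-1746 replicate 1 and 9432 to 13725 CPM in the other 7 libraries. Its 8 microglia markers summed to 25857 CPM, the highest of the 9 libraries. Fold changes of the 9 genes printed below that rest on the OAT-1746 group are therefore also given without this library.

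Levels of the 9 genes were compared with each other in CPM per kilobase of exon. In CTR the highest was Osm at 129 ± 19.4 CPM per kb (mean ± SD, n = 2), followed by Gas6 at 46.5 ± 20.6 and Pdgfb at 36.9 ± 5.05. Vegfb at 17.4 ± 1.55 and Vegfa at 17.0 ± 3.07 CPM per kb came next, then Pdgfa at 7.57 ± 1.11. The lowest levels were those of Igf1 at 1.88 ± 0.121, Hbegf at 1.12 ± 0.225 and Wnt6 at 0.733 ± 0.164 CPM per kb. Neighbours whose ranges of mean ± SD overlapped were Gas6 and Pdgfb, Vegfb and Vegfa, and Hbegf and Wnt6. Such overlap does not test a difference, because the genes were measured in the same libraries. Hbegf lay above Wnt6 in both CTR libraries (1.28 and 0.961 against 0.850 and 0.617). The order of the other pairs differed between the CTR libraries. Averaged over the libraries, the level of Osm was at or above that of 96.0% of tested genes, that of Gas6 92.6% and that of Wnt6 16.6%.

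The order changed in the other groups. Overlap in this paragraph is of ranges of mean ± SD. In OAT-1746, Osm (70.2 ± 35.7 CPM per kb), Pdgfb (68.4 ± 13.6) and Gas6 (65.5 ± 12.5) overlapped. Pdgfb was above Gas6 in both OAT-1746 libraries, while the place of Osm differed between them. Hbegf at 3.25 ± 1.31 stood above Igf1 at 1.66 ± 0.177. Vegfa at 11.1 ± 7.15 overlapped Pdgfa at 6.82 ± 0.461 CPM per kb, and Vegfb at 21.8 ± 3.35 lay above both. Wnt6 was lowest in this group, at 0.0790 CPM per kb. In anti-PD-1, Osm at 118 ± 73.9 CPM per kb overlapped Pdgfb at 53.2 ± 5.97, which overlapped Gas6 at 50.3 ± 13.9. Osm was nevertheless above Pdgfb in both anti-PD-1 libraries, while Pdgfb and Gas6 changed places between them. Vegfa at 15.6 ± 16.2 overlapped both Vegfb at 21.5 ± 1.95 and Pdgfa at 7.81 ± 0.547, and Igf1 overlapped Hbegf. In COMB (n = 3), Osm led at 76.3 ± 8.40 CPM per kb. Gas6 at 46.8 ± 13.9 overlapped Pdgfb at 39.5 ± 8.13, though Gas6 was above Pdgfb in each COMB library. Vegfb, Vegfa and Pdgfa followed without overlap of these ranges at 18.2 ± 3.26, 9.22 ± 1.66 and 6.45 ± 1.06. In COMB replicate 1, however, Vegfa at 7.34 lay below Pdgfa at 7.68 CPM per kb. At the bottom of COMB, Igf1 at 1.18 ± 0.345 overlapped Hbegf at 0.876 ± 0.117, which overlapped Wnt6 at 0.643 ± 0.472. Igf1 was above Hbegf in each COMB library, while the order of Hbegf and Wnt6 differed between the libraries.

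**Figure D1:**
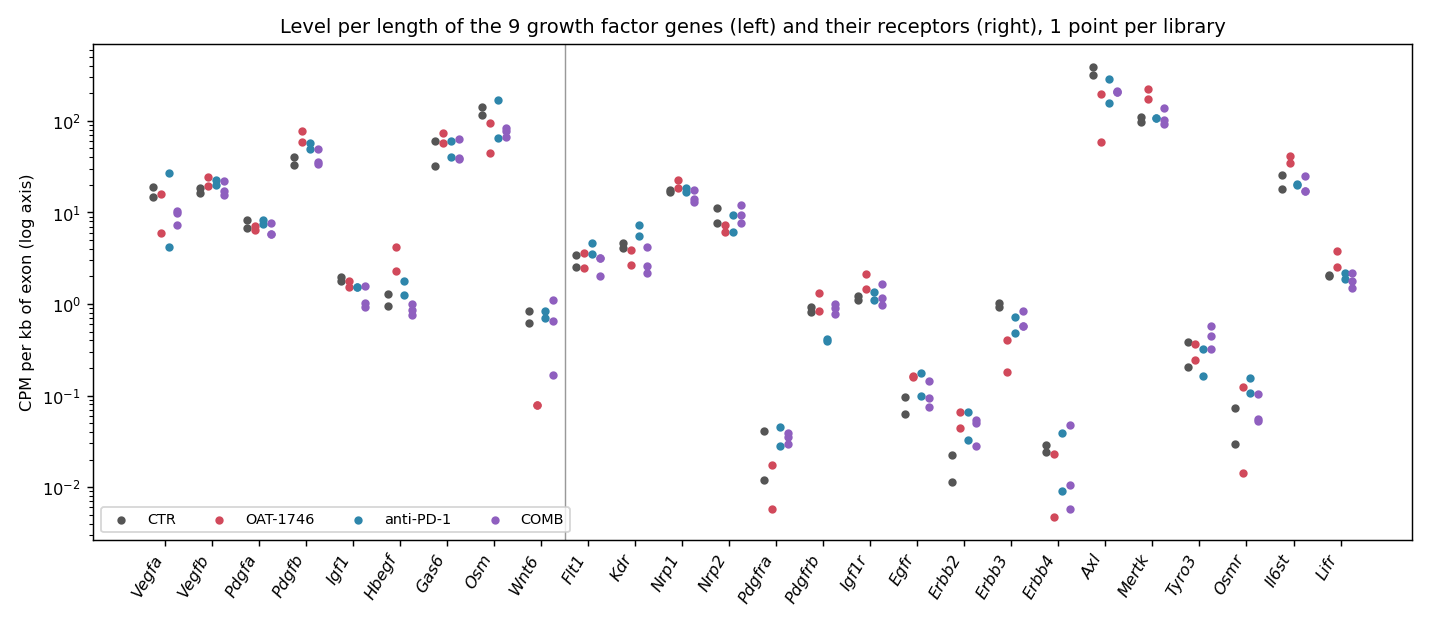
Level of the 9 growth factor genes (left of the line) and of their receptors, co-receptors and EGF receptor family members (right). The log axis gives CPM per kilobase of exon, with 1 point per library and a color per group. Among the 9 genes, Osm, Gas6 and Pdgfb lie at the top in each group and Wnt6 under OAT-1746 lies lowest (0.0790 CPM per kb), and among the receptors Axl and Mertk are highest.

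Vegfa encodes the main angiogenic ligand of endothelial cells. The gene (ENSMUSG00000023951) lies on chromosome 17 from 46016993 to 46032369 on the minus strand of GRCm38. Its level was 63.7 and 82.3 CPM in the CTR libraries, 69.0 and 25.7 under OAT-1746, 17.9 and 116 under anti-PD-1, and 31.4, 42.2 and 44.9 in COMB. The lowest and the highest of the 9 values were thus the replicates of anti-PD-1, and the COMB libraries all lay below both CTR libraries. The log2 range between the anti-PD-1 replicates, 2.69, was at or above that of 99.8% of tested genes in this group. Against CTR, the log2 fold change was -0.62 (SE 0.70, adjusted p = 0.552) in OAT-1746, -0.12 (SE 0.70, adjusted p = 0.996) in anti-PD-1 and -0.88 (SE 0.63, adjusted p = 0.791) in COMB. The value for OAT-1746 was -0.06 without OAT-1746 replicate 2 and -1.51 without OAT-1746 replicate 1. The value for anti-PD-1 turned to 0.63 without anti-PD-1 replicate 1 and to 0.08 without CTR replicate 2, and without anti-PD-1 replicate 2 the difference of COMB from anti-PD-1 turned from -0.76 to 1.16.

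Vegfb, a ligand of the receptor Flt1 (ENSMUSG00000024962, chromosome 19, 6982473 to 6987651, minus strand), varied far less. It stood at 26.2 and 29.7 CPM in CTR, 31.1 and 38.7 under OAT-1746, 36.7 and 32.2 under anti-PD-1, and 35.1, 25.1 and 27.4 in COMB. Both single-agent groups lay above both CTR libraries, and COMB overlapped every other group. The log2 fold changes against CTR were 0.32 (SE 0.20, adjusted p = 0.283) in OAT-1746, 0.30 (SE 0.20, adjusted p = 0.967) in anti-PD-1 and 0.06 (SE 0.18, adjusted p = 0.958) in COMB. The first of these was 0.17 without OAT-1746 replicate 2, and the value for anti-PD-1 was 0.17 without anti-PD-1 replicate 1. The value for COMB turned to -0.03 without CTR replicate 1 and to -0.11 without COMB replicate 1.

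Pdgfb, which recruits pericytes through Pdgfrb (ENSMUSG00000000489, chromosome 15, 79995874 to 80014977, minus strand), was called in 1 comparison. Its level was 139 and 168 CPM in CTR, 245 and 325 under OAT-1746, 239 and 204 under anti-PD-1, and 203, 149 and 141 in COMB. Both OAT-1746 libraries were above the other 7, the anti-PD-1 libraries were above CTR, and COMB overlapped CTR. Pdgfb fell in COMB against OAT-1746 (log2 fold change -0.79, SE 0.21, 95% interval -1.26 to -0.33, adjusted p = 0.0384), with 3 of 3 COMB libraries below both OAT-1746 libraries. In OAT-1746 against CTR the value was 0.89 (SE 0.23, interval 0.37 to 1.41), which missed the threshold in edgeR (adjusted p = 0.0695).

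The call for Pdgfb depended on single libraries. Leaving out OAT-1746 replicate 2 gave -0.58 (adjusted p = 0.242), and leaving out COMB replicate 2 or COMB replicate 3 gave adjusted p-values of 0.135 and 0.138. Leaving out CTR replicate 1, CTR replicate 2, anti-PD-1 replicate 1 or anti-PD-1 replicate 2 raised the adjusted p to 0.0571, 0.0572, 0.0626 and 0.0626 with a fold change of -0.79 each time. Over the 15 alternatives the adjusted p ran from 0.0105 to 0.242. For OAT-1746 against CTR it ran from 0.0119 (DESeq2) to 0.309, the value without OAT-1746 replicate 2, where the log2 fold change was 0.69. Without OAT-1746 replicate 1 that difference was called, at 1.08 and adjusted p = 0.0124.

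Pdgfa, a ligand of Pdgfra (ENSMUSG00000025856, chromosome 5, 138976014 to 138997370, minus strand), stayed between 18.2 and 26.1 CPM in the 9 libraries and overlapped between the groups in each comparison. Its log2 fold changes ran from -0.28 for COMB against anti-PD-1 to 0.04 for anti-PD-1 against CTR, and none passed the test. Without OAT-1746 replicate 2 the value for OAT-1746 against CTR was -0.07, beside -0.15 with it, and without CTR replicate 1 it turned to 0.00671. The value for anti-PD-1 against CTR turned to -0.10 without CTR replicate 2 and to -0.06 without anti-PD-1 replicate 1.

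Igf1, a trophic factor for neurons, glia and tumor cells (ENSMUSG00000020053, chromosome 10, 87858265 to 87937042, plus strand), was lowest in COMB. Its level was 19.5 and 17.8 CPM in CTR, 17.7 and 15.2 under OAT-1746, 15.3 and 15.2 under anti-PD-1, and 15.6, 10.2 and 9.22 in COMB. COMB replicates 2 and 3 were the lowest of all libraries, while COMB replicate 1 lay between the OAT-1746 libraries and above both anti-PD-1 libraries. In COMB against CTR the log2 fold change was -0.67 (SE 0.22, interval -1.17 to -0.17, adjusted p = 0.732). In COMB against OAT-1746 it was -0.50 (SE 0.22, adjusted p = 0.138). Without COMB replicate 1 the latter was called, at -0.79 and adjusted p = 0.0198, in a range of 0.0198 to 0.381 over the alternatives. It was -0.61 without OAT-1746 replicate 2.

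Hbegf encodes a membrane-anchored ligand of the EGF receptor that is released by shedding (ENSMUSG00000024486, chromosome 18, 36504927 to 36515805, minus strand). It was a low-level gene with 56 to 353 counts per library. Its level was 6.19 and 4.65 CPM in CTR, 11.2 and 20.2 under OAT-1746, 6.06 and 8.73 under anti-PD-1, and 4.82, 3.70 and 4.18 in COMB. The OAT-1746 libraries were the highest of the 9, COMB overlapped CTR only, and OAT-1746 replicate 2 was 1.80 times OAT-1746 replicate 1. Hbegf fell in COMB against OAT-1746, by a log2 fold change of -1.89 (SE 0.30, interval -2.56 to -1.23, adjusted p = 0.0160) and with 3 of 3 COMB libraries below both OAT-1746 libraries. In OAT-1746 against CTR the value was 1.54 (SE 0.33, interval 0.80 to 2.28, adjusted p = 0.0610), short of the threshold in edgeR.

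The Hbegf difference between COMB and OAT-1746 kept its sign without any single library, but not its call. Without OAT-1746 replicate 2 it was -1.42 (adjusted p = 0.115), without COMB replicate 2 -1.80 (adjusted p = 0.0879) and without COMB replicate 3 -1.88 (adjusted p = 0.0990). Over the alternatives the adjusted p ran from 7.18e-06 to 0.217. For OAT-1746 against CTR it ran from 0.00229 to 0.285, with calls by DESeq2, without the low-count filter (adjusted p = 0.0374) and without OAT-1746 replicate 1 (1.90, adjusted p = 0.00405). This difference was 1.07 without OAT-1746 replicate 2.

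Gas6, the ligand of Axl, Mertk and Tyro3 (ENSMUSG00000031451, chromosome 8, 13465374 to 13494490, minus strand), differed within groups as much as between them. Its level was 81.5 and 156 CPM in CTR, 144 and 189 under OAT-1746, 153 and 103 under anti-PD-1, and 160, 97.8 and 100.0 in COMB. The groups overlapped in each comparison. The log2 fold change was 0.49 (SE 0.36, adjusted p = 0.351) in OAT-1746 against CTR and -0.49 (SE 0.32, adjusted p = 0.299) in COMB against OAT-1746, and without OAT-1746 replicate 2 these were 0.30 and -0.28. Leaving out the CTR libraries one at a time gave 0.10 (without replicate 1) and 1.04 (without replicate 2) for the first, and leaving out COMB replicate 1 gave -0.79 for the second.

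Osm, an inflammatory cytokine of the interleukin-6 family made by myeloid cells (ENSMUSG00000058755, chromosome 11, 4236420 to 4241026, plus strand), had a wide range. Its level was 325 and 263 CPM in CTR, 217 and 102 under OAT-1746, 149 and 386 under anti-PD-1, and 153, 177 and 190 in COMB. The OAT-1746 and COMB libraries all lay below both CTR libraries, and anti-PD-1 spanned nearly the whole range. The log2 range between the anti-PD-1 replicates was 1.38, at or above that of 96.8% of tested genes. Against CTR, the log2 fold change was -0.88 (SE 0.44, adjusted p = 0.195) in OAT-1746 and -0.76 (SE 0.40, adjusted p = 0.767) in COMB. Without OAT-1746 replicate 1 the difference of OAT-1746 was called, at -1.53 and adjusted p = 0.0371, in a range of 0.0371 to 0.651, and without OAT-1746 replicate 2 it was -0.42.

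Wnt6 encodes a secreted Wnt ligand (ENSMUSG00000033227, chromosome 1, 74771892 to 74785322, plus strand) and was the lowest of the 9 genes. It had 31 and 23 counts in CTR, 3 and 3 under OAT-1746, 22 and 33 under anti-PD-1, and 5, 37 and 20 in COMB. The level was 1.86 and 1.35 CPM in CTR, 0.175 and 0.172 under OAT-1746, 1.53 and 1.86 under anti-PD-1, and 0.371, 2.44 and 1.42 in COMB. Both OAT-1746 libraries were the lowest of the 9, and COMB replicate 1 was closer to them than to the other COMB libraries. As a ratio of scaled counts, OAT-1746 stood at 0.108 of CTR (95% counting interval 0.0379 to 0.250, from 6 and 54 counts), and COMB at 8.38 times OAT-1746 (3.64 to 23.7, from 62 and 6 counts). These intervals cover counting error only.

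Wnt6 rose in COMB against OAT-1746 (log2 fold change 2.98, SE 0.82, interval 1.13 to 4.83, adjusted p = 0.0428), with 3 of 3 COMB libraries above both OAT-1746 libraries. In OAT-1746 against CTR the value was -3.16 (SE 0.85, interval -5.08 to -1.24, adjusted p = 0.0702). At 3 counts per library, fitted folds of this size may depend on the count added before the logarithm, and other added counts were not tested. DESeq2 gave log2 fold changes of -3.22 for OAT-1746 against CTR and 3.05 for COMB against OAT-1746. The call in COMB against OAT-1746 held without COMB replicate 1 and was lost when any other library was left out. The adjusted p was 0.0630 and 0.0626 without CTR replicate 1 and 2, 0.0663 and 0.214 without OAT-1746 replicate 1 and 2, 0.0639 and 0.0641 without anti-PD-1 replicate 1 and 2, and 0.140 and 0.129 without COMB replicate 2 and 3. The fold change lay between 2.32 and 3.39 in these fits, with 2.94 without OAT-1746 replicate 2. Over the alternatives the adjusted p ran from 0.00591 to 0.225. For OAT-1746 against CTR it ran from 0.0105 (DESeq2) to 0.304, and it was 0.0465 without COMB replicate 1. That difference was -3.13 without OAT-1746 replicate 2.

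**Figure D2:**
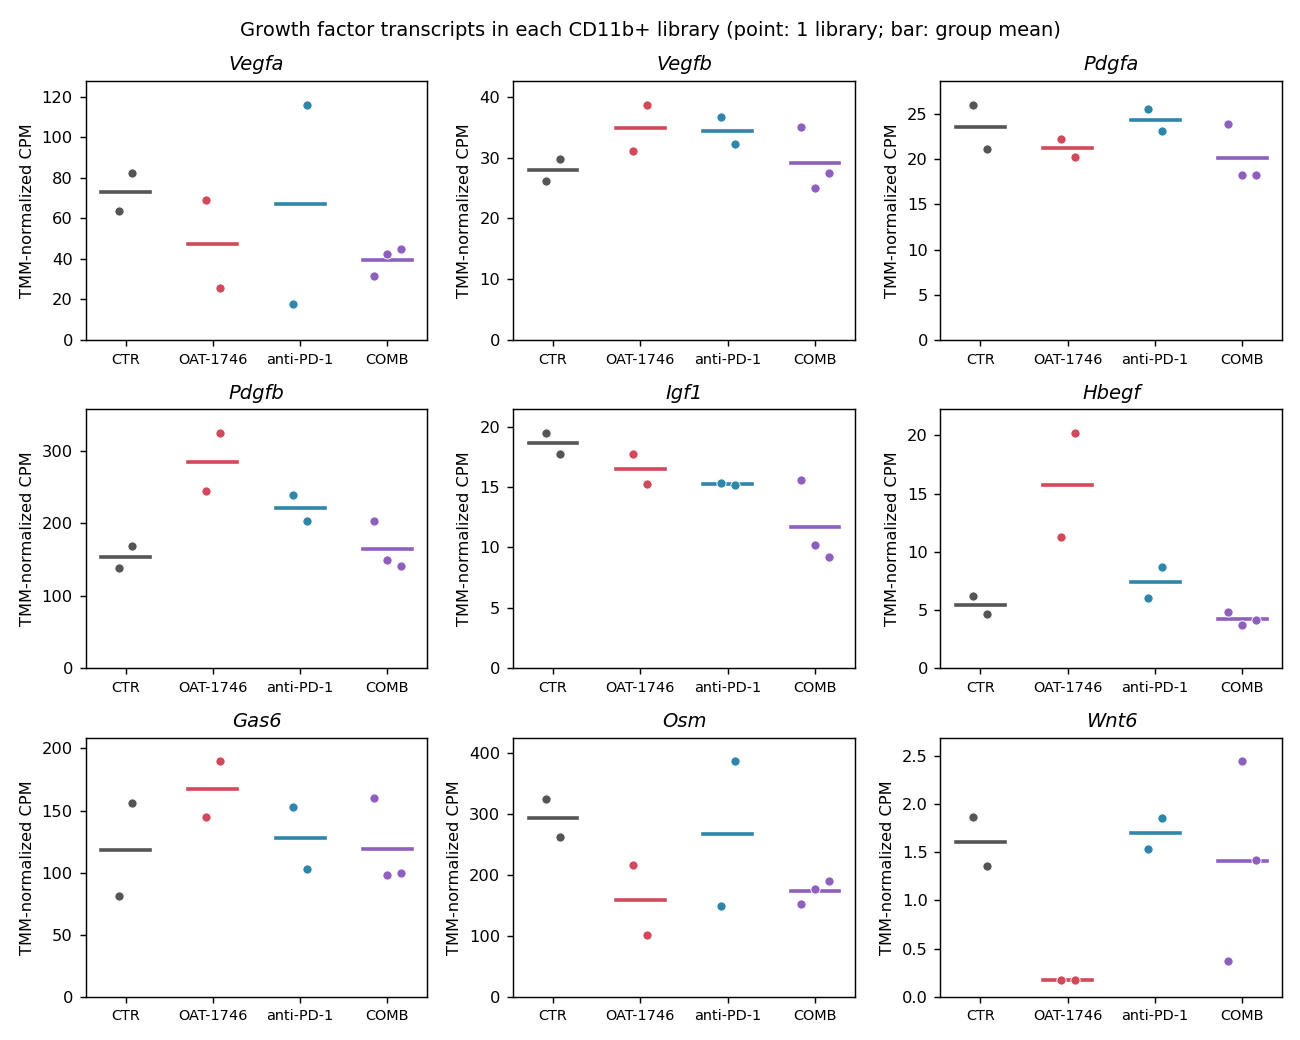
CPM of each of the 9 genes in each library, with 1 point per library, 4 groups on the horizontal axis and a bar at the group mean, each panel on its own linear scale from 0. Pdgfb and Hbegf are highest in both OAT-1746 libraries, Wnt6 is lowest there at 0.175 and 0.172 CPM, and the anti-PD-1 replicates of Vegfa and Osm lie far apart.

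Several of the 9 genes overlap another annotated gene. Igf1, Pdgfa, Pdgfb and Wnt6 each have an antisense RNA gene on the opposite strand, and Gas6 overlaps the coding gene Tmem255b there, which stranded counting separates. Pdgfb also holds the microRNA gene Mir7213 on its own strand.

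The 6 comparisons share libraries, so their values are given side by side and not as independent evidence. In OAT-1746 against CTR, which asks what the inhibitor does alone, 4 of the 9 genes had a positive and 5 a negative log2 fold change. None of the 9 was called at an adjusted p under 0.05 in edgeR, where 0% of all tested genes were called. At an unadjusted p under 0.05, 3 of 9 passed (Hbegf, Pdgfb and Wnt6) beside 32.3% of all tested genes, and DESeq2 called the same 3 beside 16.4%. The groups did not overlap for 6 of 9, beside 62.9% of all tested genes. The median log2 fold change was -0.15 for the 9 genes and 0.01 for all tested genes. The count of 0 tested genes called became 3647 without OAT-1746 replicate 1 and 278 without COMB replicate 1.

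In anti-PD-1 against CTR, the comparison for the antibody alone, 6 genes had a positive and 3 a negative value. Of the 9 genes 0 were called in edgeR (0% of all tested genes), 1 passed at an unadjusted p under 0.05 (Pdgfb, 0.53, SE 0.23, beside 5.12% of tested genes) and 0 were called in DESeq2 (0.114%). Pdgfb, Vegfb and Igf1 made the 3 of 9 whose groups did not overlap, beside 37.6% of tested genes. The medians were 0.08 for the 9 genes and 0.02 for all.

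In COMB against CTR, the comparison for both agents together, 3 genes had a positive and 6 a negative value. Of the 9 genes 0 were called in edgeR (0% of tested genes), 1 passed at an unadjusted p under 0.05 (Igf1, beside 6.58%) and 0 were called in DESeq2 (0.285%). Vegfa, Igf1 and Osm were lower in each COMB library than in each CTR library, which made 3 of 9 without overlap, beside 27.9% of tested genes. The medians were -0.23 for the 9 genes and -0.00 for all.

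In COMB against OAT-1746, which asks what the antibody adds to the inhibitor, 2 genes had a positive and 7 a negative value. Wnt6 rose and Hbegf and Pdgfb fell, so 3 of 9 were called in edgeR beside 15.8% of tested genes. The same 3 passed at an unadjusted p under 0.05, beside 37.1%, and in DESeq2, beside 25.4%. They were also the 3 of 9 without overlap, beside 54% of tested genes. The medians were -0.26 for the 9 genes and 0.00 for all. The 1979 tested genes called here became 27 without OAT-1746 replicate 2, 4058 without OAT-1746 replicate 1, 14 without COMB replicate 2 and 1 without COMB replicate 3. Leaving out CTR replicate 1 or 2 gave 847 and 845, and leaving out anti-PD-1 replicate 1 or 2 gave 666 and 660.

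In COMB against anti-PD-1, which asks what the inhibitor adds to the antibody, all 9 genes had a negative value. Of the 9 genes 0 were called in edgeR (0% of tested genes), 1 passed at an unadjusted p under 0.05 (Hbegf, -0.81, SE 0.30, beside 7.23%) and 0 were called in DESeq2 (0.434%), which gave Wnt6 no adjusted p. The value for Hbegf was -0.49 without anti-PD-1 replicate 2 and ran from -1.003 to -0.49 without single libraries. Hbegf and Pdgfb made the 2 of 9 without overlap, beside 26.4% of tested genes. The medians were -0.39 for the 9 genes and -0.01 for all. The sign turned for Vegfa (1.16) and Osm (0.24) without anti-PD-1 replicate 2, for Wnt6 (0.19) without COMB replicate 1, and for Gas6 without anti-PD-1 replicate 1 (0.26), COMB replicate 2 (0.0218) or COMB replicate 3 (0.00956). Without OAT-1746 replicate 1 or 2, the count of 0 tested genes called became 43 and 38.

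The interaction asks whether the effect of OAT-1746 differs between mice with and without the antibody. It was negative for 7 and positive for 2 of the 9 genes. For Hbegf it was -2.35 (SE 0.45, interval -3.35 to -1.34, adjusted p = 0.0662) and for Pdgfb -1.32 (SE 0.31, interval -2.02 to -0.62, adjusted p = 0.0850). Of the 9 genes 0 were called in edgeR, beside 0.359% of tested genes, 3 passed at an unadjusted p under 0.05 (Hbegf, Pdgfb and Wnt6), beside 26.2%, and DESeq2 called 2 (Hbegf and Pdgfb), beside 9.5%. The value for Wnt6 was 2.90 (SE 1.07, adjusted p = 0.142), with no adjusted p in DESeq2, and 2.89 without OAT-1746 replicate 2. The medians were -0.21 for the 9 genes and -0.02 for all.

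Single libraries and the low-count filter moved the interaction across the threshold. Without the filter edgeR called Hbegf (-2.32, adjusted p = 0.0349). Hbegf was called without OAT-1746 replicate 1 (-2.71, adjusted p = 0.00531) and without COMB replicate 1 (-2.45, adjusted p = 0.0434), and Pdgfb without the same libraries (-1.51 each, adjusted p = 0.0140 and 0.0432). Without OAT-1746 replicate 2 the values were -1.84 for Hbegf and -1.08 for Pdgfb, not called. The adjusted p ran from 0.000780 to 0.400 for Hbegf and from 0.00979 to 0.400 for Pdgfb over the alternatives. The count of 45 tested genes called became 2756 without OAT-1746 replicate 1, 419 without COMB replicate 1, 25 without OAT-1746 replicate 2 and 22 without anti-PD-1 replicate 1. It became 0 without CTR replicate 1, CTR replicate 2, anti-PD-1 replicate 2, COMB replicate 2 or COMB replicate 3.

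**Figure D3:**
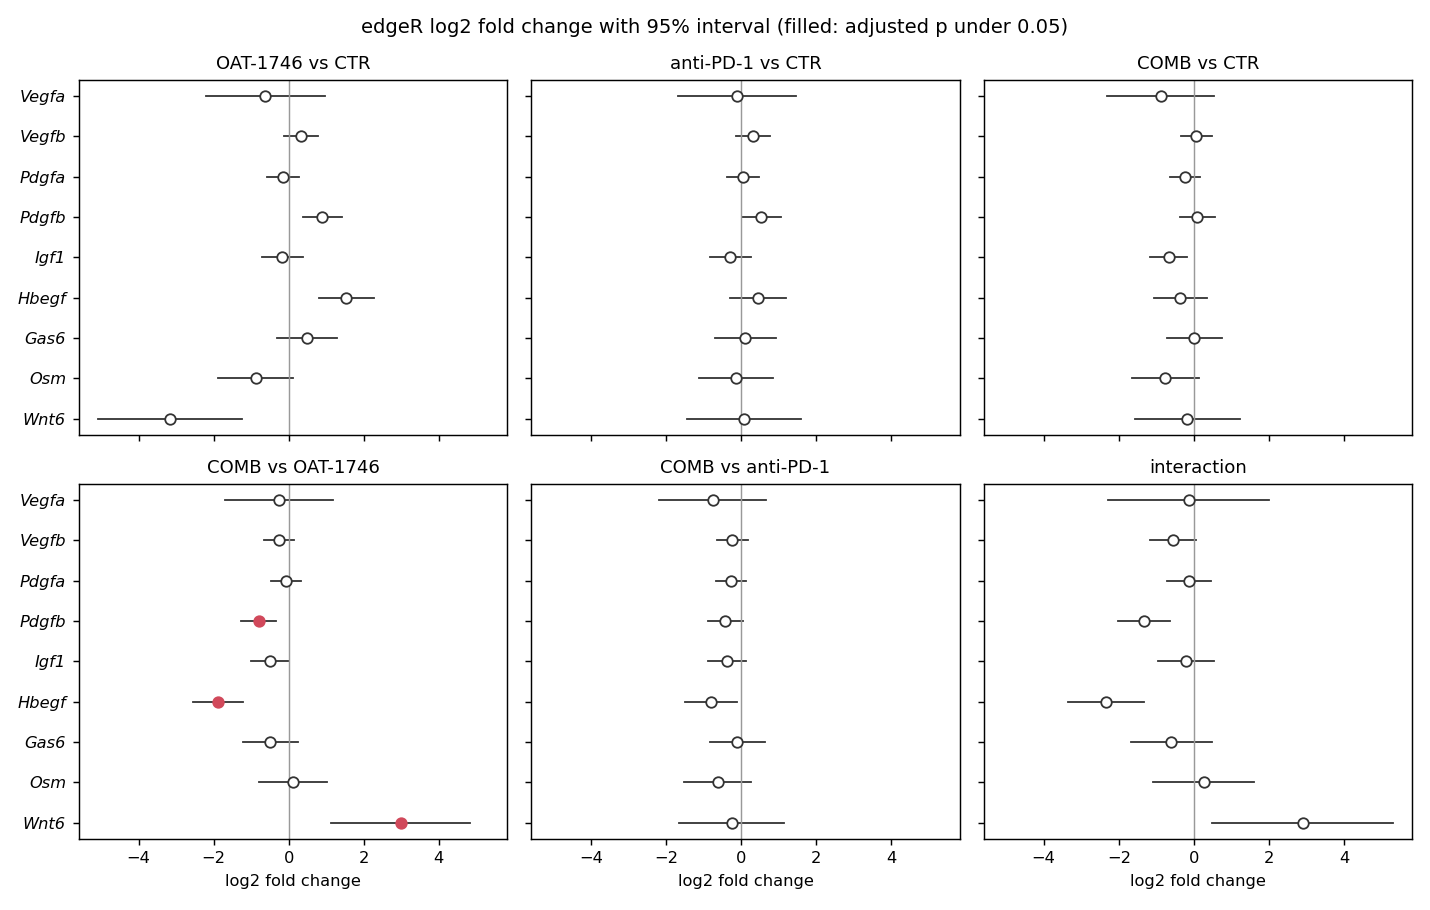
Log2 fold change of the 9 genes in the 6 comparisons with 95% intervals, where filled points mark an adjusted p under 0.05 in edgeR. The 3 filled points are those of Hbegf (-1.89), Pdgfb (-0.79) and Wnt6 (2.98) in COMB against OAT-1746.

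Markers of the cell types in the sort moved with the same groups. Summed over 8 of 8 tested microglia markers, the level was 9843 and 16049 CPM in CTR, 20725 and 25857 under OAT-1746, 14540 and 11914 under anti-PD-1, and 18163, 14046 and 13042 in COMB. For the 8 of 8 monocyte and macrophage markers, led by Tgfbi, it was 12823 and 11569 CPM in CTR, 8673 and 1749 under OAT-1746, 11475 and 13725 under anti-PD-1, and 9432, 11636 and 12068 in COMB. The OAT-1746 libraries thus had the highest microglia sums and the lowest monocyte sums, as they had the highest Hbegf and Pdgfb and the lowest Wnt6 levels. Not every monocyte marker followed the sum in OAT-1746 replicate 1, where Ly6c2 at 929 CPM was the highest of the 9 libraries and Plac8 at 663 CPM was above both CTR libraries (345 and 578). No marker of either list was at 0 in all libraries. The part of these cell types in the differences of the 9 genes was not tested, and in sorted bulk samples fewer cells of a type and less RNA per cell cannot be told apart.

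Immediate early genes, which respond to stimulation within minutes and also to the handling of cells, had their highest sums in the OAT-1746 libraries, as Hbegf and Pdgfb did. The 12 of 12 genes of this list, led by Junb, summed to 9852 and 9065 CPM in CTR, 14002 and 21120 under OAT-1746, 9287 and 11976 under anti-PD-1, and 5192, 5591 and 5749 in COMB. In COMB against OAT-1746 all 12 had a negative value and edgeR called 11, beside 15.8% of tested genes (median log2 fold change -2.23, beside 0.00 for all tested genes). Because this list was chosen with earlier results of these data known, its shares beside all tested genes are a description and not a test. Without OAT-1746 replicate 2 the median was -1.79 with 3 called, and 3 were called without COMB replicate 2 and 1 without COMB replicate 3. In the interaction all 12 were negative as well, with a median of -2.24 beside -0.02 for all tested genes (Hbegf -2.35, Pdgfb -1.32). There edgeR called 5 of the 12 beside 0.359% of tested genes, 11 passed at an unadjusted p under 0.05 beside 26.2%, and DESeq2 called 10 beside 9.5%. Leaving out single libraries (chosen after seeing the data) left all 12 negative, with 10 called without OAT-1746 replicate 1, 3 without anti-PD-1 replicate 1, and 0 without CTR replicate 1, CTR replicate 2, anti-PD-1 replicate 2, COMB replicate 2 or COMB replicate 3. Without OAT-1746 replicate 2 the median was -1.78 with 4 called. In COMB against CTR the median of the list was -1.03, while Hbegf was at -0.36 and Pdgfb at 0.10. None was at 0 in all libraries, and their part in the differences of Hbegf and Pdgfb was not tested.

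**Figure D4:**
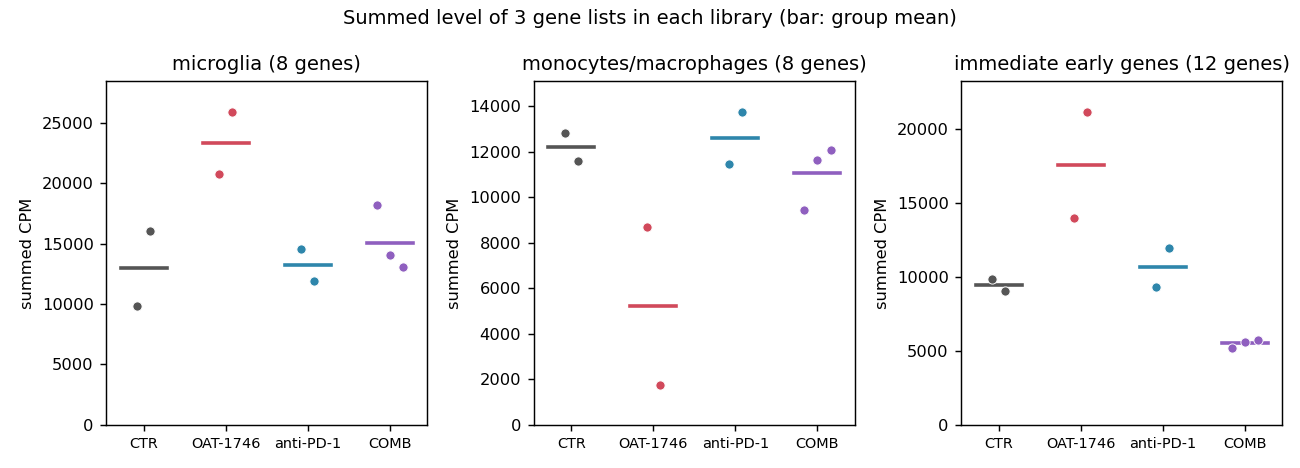
Summed CPM of the marker lists for microglia, for monocytes and macrophages and for immediate early genes, with 1 point per library, by group. The OAT-1746 libraries have the highest microglia sums (20725 and 25857 CPM), and all 3 COMB libraries have the lowest sums of immediate early genes.

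The 9 genes were also compared pairwise across the 9 libraries on the log2 CPM scale, in 36 pairs with exact permutation tests over 362880 pairings and adjustment over the 36. These p-values treat the 9 libraries as exchangeable although they come from 4 groups. Vegfa and Osm varied together, with Pearson r = 0.880 (exact permutation p = 0.00213, adjusted 0.0383) and Spearman rho = 0.933 (exact permutation p = 0.000750, adjusted 0.0270). Without the 2 libraries farthest from the median of Vegfa, both from anti-PD-1, r was 0.898. Vegfb and Pdgfb had r = 0.897 (exact permutation p = 0.00142, adjusted 0.0383) and rho = 0.833 (exact permutation p = 0.00827, adjusted 0.0969), and r = 0.846 without OAT-1746 replicate 2 and COMB replicate 2. Pdgfb and Hbegf had r = 0.830 (exact permutation p = 0.00467, adjusted 0.0561) and rho = 0.700 (exact permutation p = 0.0433, adjusted 0.260), and r = 0.795 without CTR replicate 1 and OAT-1746 replicate 2. Of the 36 pairs, 2 passed by Pearson and 1 by Spearman after adjustment. Within groups, with the group means removed and 48 pairings inside the groups (chosen after seeing the data), r was 0.942 for Vegfa and Osm (exact permutation p = 0.167, adjusted 0.429), 0.949 for Vegfb and Pdgfb (p = 0.0417, adjusted 0.188) and 0.318 for Pdgfb and Hbegf (p = 0.646, adjusted 0.802). Leaving out 1 library gave 0.872 to 0.984, 0.893 to 0.997 and -0.119 to 0.530 in the same order, and the last pair was at -0.119 without either OAT-1746 library. The smallest p that 48 pairings can give is 0.0208, 8 of the 36 pairs had a p under 0.05 and 0 passed after adjustment.

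**Figure D5:**
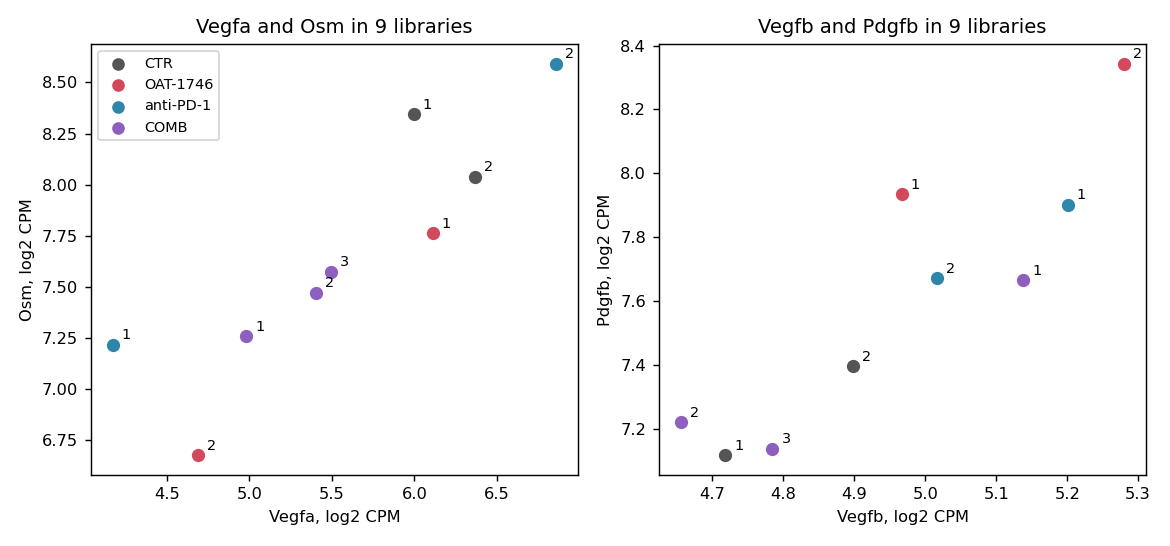
Log2 CPM of Osm against Vegfa and of Pdgfb against Vegfb, with 1 point per library colored by group and numbered by replicate. Both pairs rise together across the 9 libraries (r = 0.880 and r = 0.897), and the anti-PD-1 libraries mark the ends of the Vegfa axis.

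Outside the 9 genes, the tested genes most like each of them in log2 CPM over the 9 libraries are given as a description. For Vegfa they were Ulbp1 (r = 0.979), Imp4 (0.973) and Pde4b (0.958), and for Osm Stip1 (r = 0.983), E2f4 (0.972) and Hsp90ab1 (0.970). For Hbegf they were Krit1 (r = 0.993) and Pcf11 (0.990), and for Pdgfb Caap1 (r = 0.991), Nfam1 (0.984) and Peg10 (0.984). Wnt6 was most like Wdr55 (r = 0.974), U2af1 (0.962) and Ptgr1 (0.961), and Gas6 most like Vangl2 (r = 0.986), Abhd12 (0.963) and Pcdhb22 (0.961). The highest r was 0.959 for Vegfb, with Fchsd1, then Zfp867 and Ormdl3, 0.956 for Igf1, with Rab11fip4, then Osgin1 and Ncoa4, and 0.934 for Pdgfa, with Baiap2l2, then Enpp1 and Atp6v0d2.

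Promoter sequences from RefSeq (build GRCm38.p6) were taken from a table that is not complete. From it, 8 entries for 6 of the 9 genes were used, and none for Pdgfb, Hbegf and Osm. The 250 bases before the start were searched on both strands for ACGTG (the core of the hypoxia response element), GGGCGG (SP1), TGANTCA (AP-1) and TTCNNNGAA (STAT). These letters occur in 16.57%, 32.74%, 6.749% and 7.02% of 32851 promoters. Shown are the sequences of Wnt6 and Vegfa. Wnt6 was the called gene with an entry used here. Vegfa was the gene with such an entry in the pair that varied together by both measures. Capitals mark GGGCGG or its reverse complement CCGCCC, and a match describes the letters only.
Vegfa (chr17:46032378-46032627, minus strand): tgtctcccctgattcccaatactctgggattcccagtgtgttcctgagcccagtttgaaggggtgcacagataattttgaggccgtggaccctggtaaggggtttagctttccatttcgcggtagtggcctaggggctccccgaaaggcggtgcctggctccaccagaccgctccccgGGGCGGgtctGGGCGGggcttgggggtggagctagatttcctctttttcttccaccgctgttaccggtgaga
Wnt6 (chr1:74771642-74771891, plus strand): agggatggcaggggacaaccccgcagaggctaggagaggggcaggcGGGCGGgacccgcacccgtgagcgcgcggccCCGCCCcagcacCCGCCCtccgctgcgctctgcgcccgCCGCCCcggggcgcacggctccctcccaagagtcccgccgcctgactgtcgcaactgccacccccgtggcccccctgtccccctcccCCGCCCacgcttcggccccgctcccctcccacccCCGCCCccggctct

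The Vegfa sequence held 2 matches to GGGCGG, at -72 to -67 and -62 to -57 from the start, and its GC content was 59.2%. The Wnt6 sequence held 6 matches, the nearest at -14 to -9 and the farthest at -204 to -199, and its GC content was 79.6%. Neither held any of the other motifs. Among the other entries, Vegfb and Gas6 had 4 matches to GGGCGG each, the Pdgfa entries 1 and 2, and Igf1 none. The starts of the Igf1 entry and of the Pdgfa entries lie 2846, 3089 and 2426 bases from the annotated gene start, so these counts are not from the sequence just before it. A further Vegfa entry, whose start lies 7206 bases inside the gene, had 1 match each to ACGTG and GGGCGG, and the Igf1 entry had 1 match to TGANTCA.

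Receptors and co-receptors of the 9 factors, with other members of the EGF receptor family, were present at very unequal levels in the sorted cells. The Gas6 receptors Axl and Mertk had the highest, at 226 and 128 CPM per kb (means of 9 libraries), while Tyro3 had 0.337. Axl stood at 1977 and 1590 CPM in CTR, 1003 and 294 under OAT-1746, 799 and 1449 under anti-PD-1, and 1032, 1056 and 1041 in COMB. Both OAT-1746 libraries lay below the CTR and COMB libraries, replicate 2 further than replicate 1, and anti-PD-1 replicate 1 lay between them. Mertk was highest in the OAT-1746 libraries, with 749 and 968 CPM against 420 and 482 in CTR. For oncostatin M, Il6st (gp130) stood at 24.3 and Lifr at 2.22 CPM per kb, beside 0.0793 for Osmr. The VEGF co-receptors Nrp1 and Nrp2 stood at 17.3 and 8.52 CPM per kb, and the VEGF receptors Kdr and Flt1 at 4.13 and 3.17. Igf1r had 1.36 and Pdgfrb 0.826 CPM per kb. Egfr, the receptor named above for Hbegf, had 0.119 CPM per kb, and its family member Erbb3 had 0.640. Pdgfra, Erbb2 and Erbb4 were below the filter, at 0.0282, 0.0420 and 0.0215 CPM per kb.

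Over 8 lists of related ligands, receptors and signaling genes, 65 of 96 genes were tested. In COMB against OAT-1746, 3 rose and 7 fell, which is 15.4% of the 65 beside 15.8% of all tested genes, and in each other comparison edgeR called 0 of them. At an unadjusted p under 0.05, OAT-1746 against CTR had 14 higher and 8 lower, which is 33.8% of the 65 beside 32.3% of all tested genes. Of the VEGF list (7 of 8 tested), the Flt1 ligand Pgf rose (log2 fold change 2.84, adjusted p = 0.0304). Of the TAM receptor list (4 of 4), Mertk fell (-0.84, adjusted p = 0.0336), and of the oncostatin M list (8 of 9), Il6st (-0.93, adjusted p = 0.0318) and Lifr (-0.82, adjusted p = 0.0371) fell. Of the Wnt list (17 of 34), the receptor gene Fzd1 rose (2.00, adjusted p = 0.0369), while Fzd5 (-1.53, adjusted p = 0.0286) and the co-receptor genes Lrp6 (-0.91, adjusted p = 0.0400) and Lrp5 (-0.59, adjusted p = 0.0488) fell. Of the IGF list (10 of 12), the insulin receptor gene Insr fell (-0.73, adjusted p = 0.0432), and of other trophic factors (9 of 12), the hepatocyte growth factor gene Hgf rose (1.30, adjusted p = 0.0487). By edgeR, no gene of the PDGF list (4 of 5) or the EGF list (6 of 12) was called, although Hbegf and Pdgfb themselves were. DESeq2 called 1 gene of the PDGF list higher, and of the EGF list 1 higher and 1 lower. Leaving out single libraries, an alternative chosen after seeing the data, ended the edgeR calls of the 10 genes named above, while each kept its direction. None of the 10 was called without OAT-1746 replicate 2 (adjusted p from 0.181 for Pgf to 0.292 for Lrp5), where Fzd5 was at -0.95 and Lifr at -0.51, and 0 of the 65 were called without that library, without COMB replicate 2 or without COMB replicate 3. Pgf was the 1 gene of the 65 called without anti-PD-1 replicate 1 or without anti-PD-1 replicate 2, and 3 of the 65 were called without CTR replicate 1 or CTR replicate 2. The count was 21 without OAT-1746 replicate 1 and 15 without COMB replicate 1.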

How the data were processed

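The starting values were raw counts from HTSeq-count 0.11.1, made by the authors from stranded poly-A libraries trimmed with Trimmomatic 0.36 and aligned with STAR 2.6.1b. Of 53801 genes, 53620 matched GENCODE M21 and 21890 were protein-coding. A low-count filter (filterByExpr with a minimum count of 10) left 12538 genes. edgeR 4.0.16 fitted 1 mean per group to the 9 libraries with TMM scaling, and its two-sided quasi-likelihood test was adjusted by Benjamini-Hochberg over the 12538 genes. A gene was called at an adjusted p under 0.05. DESeq2 1.42.0 served as another tool. CPM were counts relative to library size with TMM scaling, divided by exon length for levels between genes.

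The 9 genes and the lists were chosen with earlier results of these data known. All 9 were described whatever their values. From the related lists, receptors and at most 4 called genes per list were named, and for likeness the 3 tested genes with the highest Pearson r. The cell type lists covered microglia, monocytes and macrophages, border-associated macrophages, neutrophils, dendritic cells, NK cells, T cells, B cells, endothelial cells, mural cells, astrocytes, the oligodendrocyte lineage, neurons and glioma cells, beside immediate early genes. Itgam and Ptprc were added later to check the sort. Of the genes these rules name, 2 are not reported here.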

Additional observations from a re-analysis of the deposited data

Results flagged for a closer look

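The effect of OAT-1746 differed between mice with and without the antibody for 2 of the 8 genes with an adjusted p by the test of the difference itself in DESeq2, beside 9.5% of all genes it tested, and Wnt6 had no adjusted p. With the low-count filter and all 9 libraries edgeR called neither, and without the filter it called Hbegf (-2.32, adjusted p = 0.0349). For Hbegf the difference of effects was -2.35 on the log2 scale (adjusted p = 0.0662 in edgeR and 0.000780 in DESeq2, with 0.000780 to 0.400 over the alternatives). For Pdgfb it was -1.32 (adjusted p = 0.0850 in edgeR and 0.00979 in DESeq2, with 0.00979 to 0.400). All 12 immediate early genes were negative in the same test (median -2.24), and edgeR called 5 (0 to 10 without single libraries) beside 0.359% of all genes and DESeq2 10 beside 9.5%. As the list of these genes was chosen with earlier results of these data known, its shares beside all genes are a description and not a test. The sums of the immediate early genes and of microglia markers were also highest in the OAT-1746 libraries, and their part in the differences of Hbegf and Pdgfb was not tested.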

How the results depend on the processing

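Each comparison of each gene was refitted under 15 alternatives: DESeq2 size factors, library size only, DESeq2, no low-count filter, all genes, a replicate block, and leaving out each of the 9 libraries, where a lone library of a group is assumed to vary like the other groups. Of the 54 values, all kept direction and side of the threshold under the other scalings and with all genes, 5 became called in DESeq2 and 2 without the filter. Library size only moved the median of all genes in the interaction from -0.02 to -0.11. The cause of the changes below was not tested. Low depth limits Wnt6 (3 to 37 counts).

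The number of genes called moved from 0 to 1972 (DESeq2) and 587 (no filter) in OAT-1746 against CTR, to 14 (DESeq2) in anti-PD-1 against CTR, to 35 (DESeq2) and 2 (no filter) in COMB against CTR, and to 47 (DESeq2) and 2 (no filter) in COMB against anti-PD-1. In COMB against OAT-1746 it moved from 1979 to 3062 (DESeq2). In the interaction it moved from 45 to 24 (library size only), 1053 (DESeq2), 146 (no filter) and 18 (all genes). Leaving out 1 library gave 0 to 3647 in OAT-1746 against CTR, 1 to 4058 in COMB against OAT-1746, 0 to 43 in COMB against anti-PD-1, and for the interaction 0 to 2756.

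To look for pairing by replicate number, deviations of libraries from their group means were correlated between groups. The 12 correlations ran from -0.349 to 0.0999, with 0 over the minimum of 0.1 set for pairing. In groups with n = 2 these deviations mirror each other, so some of the 12 repeat, and this check cannot exclude pairing. With a replicate block, 2 genes were called in COMB against OAT-1746 and 0 in the interaction. The calls of Hbegf (-1.85, adjusted p = 0.217), Pdgfb (-0.69, adjusted p = 0.234) and Wnt6 (2.83, adjusted p = 0.225) were lost with the replicate block, and Gas6 in COMB against anti-PD-1 turned to 0.00976.

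Leaving out 1 library turned 19 of the 54 values, in 33 of 486 refits, and none of the 19 was called. A further 20 kept their sign but moved by over 1.5 times in 48 refits, and 0 of these 20 were called with all libraries. The ranges of the 19 were, for Vegfa, -2.04 to 0.63 in anti-PD-1 against CTR, -0.82 to 0.62 in COMB against OAT-1746, -1.52 to 1.16 in COMB against anti-PD-1 and -0.91 to 1.77 in the interaction. For Osm they were -1.002 to 0.36, -0.34 to 0.76, -1.12 to 0.24 and -0.25 to 1.11 in the same order. In anti-PD-1 against CTR they were -0.10 to 0.20 for Pdgfa, -0.28 to 0.65 for Gas6 and -0.13 to 0.33 for Wnt6. In COMB against CTR they were -0.11 to 0.16 for Vegfb, -0.11 to 0.24 for Pdgfb, -0.38 to 0.55 for Gas6 and -0.83 to 0.24 for Wnt6. In COMB against anti-PD-1 they were -0.37 to 0.26 for Gas6 and -0.91 to 0.19 for Wnt6, and for Pdgfa -0.29 to 0.00671 in OAT-1746 against CTR and -0.28 to 0.0175 in the interaction.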

Other observations

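Markers of other cell types were measured in the same libraries. NK cell markers (6 of 6 tested, led by Gzma) summed to 184 and 92.5 CPM in anti-PD-1 against 30.1 and 27.2 in CTR, 43.0 and 13.1 in OAT-1746, and 37.9, 81.9 and 88.9 in COMB. Each of the 6 had a positive log2 fold change in anti-PD-1 against CTR (median 2.33, beside 0.02 for all tested genes), where edgeR called 0 (0% of all tested genes), 6 passed at an unadjusted p under 0.05 (5.12% of all) and DESeq2 called 2 (0.114% of all). Astrocyte markers (5 of 5, led by Aldoc) summed to 113 to 120 CPM in COMB and 61.9 to 81.5 in the other libraries. Gfap, singled out after its values were seen, ran against this sum, with 3.71, 4.29 and 2.84 CPM in COMB and 5.17 to 11.1 in the other 6 libraries. In COMB against OAT-1746 edgeR and DESeq2 each called 1 of the 5 up and 1 down, in edgeR Aldoc (log2 fold change 0.91, adjusted p = 0.0440) and Gfap (-1.18, adjusted p = 0.0427), beside 15.8% of tested genes. Without single libraries, refits chosen after seeing the data, both kept their direction. Gfap was called in none of the 9 refits (adjusted p from 0.0522 to 0.201) and was at -0.56 without OAT-1746 replicate 1. Aldoc was called without OAT-1746 replicate 1 or COMB replicate 1, was at 0.62 without OAT-1746 replicate 2, and had adjusted p-values of 0.0124 to 0.245 over the 9 refits.

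The remaining sums varied over the 9 libraries as follows. Border-associated macrophage markers (7 of 7, led by F13a1) summed to 609 to 877 CPM and neutrophil markers (7 of 7, led by S100a9) to 59.8 to 205 CPM. Dendritic cell markers (6 of 6, led by Ccr7) summed to 62.6 to 124 CPM and oligodendrocyte lineage markers (7 of 7, led by Mbp) to 162 to 311 CPM. Endothelial markers (5 of 5, led by Pecam1) summed to 54.9 to 125 CPM and mural markers (4 of 4, led by Rgs5) to 16.8 to 65.3 CPM. T cell markers (4 of 5, led by Cd4) reached 6.80 to 12.4 CPM, B cell markers (3 of 4, led by Cd79b) 10.5 to 25.4, the 4 neuron markers (led by Tubb3) 2.58 to 9.31 and the 3 glioma cell markers (led by Nes) 5.48 to 11.6. No gene of these lists was at 0 in all libraries.

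Some markers of these lists were called in COMB against OAT-1746, where edgeR called 15.8% of tested genes, and they are named after their values were seen. The neuron sums were highest in the OAT-1746 libraries (9.31 and 8.07 CPM, against 2.58 to 5.65 in the other 7). Of the 4 neuron markers 2 fell, Nefl (log2 fold change -2.33, adjusted p = 0.0242) and Rbfox3 (-2.10, adjusted p = 0.0286). The list had 1 higher and 3 lower values, with a median of -1.66. Tubb3, its most abundant marker, was the higher one, at 2.33 and 1.77 CPM under OAT-1746 and 2.82, 1.78 and 2.48 in COMB. In refits chosen after seeing the data, 0 of the 4 were called without OAT-1746 replicate 2, COMB replicate 2 or COMB replicate 3. Of the microglia markers P2ry12 (-1.07, adjusted p = 0.0383) and Sall1 (-1.06, adjusted p = 0.0331) fell, and 0 of the 8 were called without OAT-1746 replicate 2, either anti-PD-1 library, COMB replicate 2 or COMB replicate 3, 3 without OAT-1746 replicate 1 and 5 without COMB replicate 1. F13a1 rose (0.73, adjusted p = 0.0426), the mural marker Acta2 fell (-1.83, adjusted p = 0.0375) and the glioma cell marker Sox2 rose (1.77, adjusted p = 0.0382). Other members of these 3 lists went the other way. The border-associated macrophage list had 3 higher and 4 lower (median -0.33). The mural list had 2 higher and 2 lower (median 0.000615), and the glioma cell list 2 higher and 1 lower (median 0.24). None of the border-associated macrophage, mural or glioma cell markers was called when either CTR library, OAT-1746 replicate 2, either anti-PD-1 library, COMB replicate 2 or COMB replicate 3 was left out, and no glioma cell marker when COMB replicate 1 was. Of the border-associated macrophage markers, 3 were called without OAT-1746 replicate 1 and 3 without COMB replicate 1.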
